A study of Mus musculus with 4 samples.

Results

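The genes described here encode actins and conventional myosin heavy chains, the proteins of the contractile cytoskeleton. Their regions were taken from a table of transcript regions captured by an antibody against N6-methyladenosine (m6A), a methyl mark on adenosines inside mRNA. All rows under Actb, Actg1, Acta2, Myh10 and Myh3 were used, together with any other symbol made of Myh and a number, which added Myh9. That gave 25 of the 6697 distinct regions and 6 of the 3884 gene identifiers in the table. Acta1, a muscle actin that the choice did not name, had 1 region and is given beside them for comparison.

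Actin polymerises into filaments, and myosin II pulls on them. Each myosin II motor has a pair of heavy chains that hydrolyse ATP and smaller light chains that regulate it. Actb and Actg1 encode the β- and γ-actin found in nearly all cells, and Myh9 and Myh10 the non-muscle heavy chains IIA and IIB, which drive cell shape change, adhesion and division. Acta2 encodes the smooth muscle α-actin, Acta1 the skeletal muscle α-actin and Myh3 the heavy chain of embryonic skeletal muscle. The mark m6A is read by proteins that influence how long an mRNA lasts and how well it is translated.

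The study asked how m6A-modified mRNA differs between mouse embryonic stem cells without either Gsk-3 kinase (a double knockout, DKO) and wild-type cells. Its 4 samples were an m6A immunoprecipitate and an input of total mRNA from each genotype, 1 library each, all from the E14K line. Cells of both genotypes were grown without feeder cells and without leukaemia inhibitory factor (LIF) for 14 days, so both had left the medium that keeps stem cells undifferentiated. The labels name no clone and do not say how the kinases were deleted.

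The table gave 1 read count per region for each genotype, and the columns were taken as the m6A libraries, the ones whose sample titles name m6A-seq. The headers give only the genotype, so input counts are not excluded. Input was not analysed here, so more m6A per transcript and more transcript cannot be told apart in any value below. The counts summed to 27072 in the DKO and 573971 in wild type over the distinct regions. Library totals were not used here. The number of regions in which the DKO matched or exceeded wild type was 0, so a lower DKO count is what every listed region has in common and says nothing about genes or regions outside the table. Of 10 stem cell markers 4 were listed, namely Esrrb, Lin28a, Pou5f1 and Utf1, and Nanog, Sox2, Klf4 and Zfp42 were not.

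Folds are given as the number of times the DKO count lay below the wild-type count after the authors' scaling constant of 0.825. Each has an exact 95% interval for counting error, and a region with 0 DKO reads has a lower bound, computed as if it had 3. That floor lies below the upper limit of the 95% Poisson interval of a count of 0 (3.69). The bound also leaves out counting error in wild type, so "at least" does not mark a 95% limit. With 1 library per genotype there is no test, and each comparison is between these libraries.

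In the 25 actin and myosin heavy chain regions the DKO count ran from 0 to 35 (median 2) and the wild-type count from 17 to 310 (median 66). DKO reads were absent in 8 of the 25, where 50.5% of all distinct regions and 36.1% of those overlapping a coding exon or UTR had none. At least 10-fold lower in the DKO, with zeros at their bound, were 11 of the 25, against 52.5% of all distinct regions. The members as a group therefore lay near or below the shares of the whole table. DKO counts differed both between genes and within them. Myh3 and Acta2 had no DKO reads in any region, while Myh9 had DKO reads in each of its regions and Actb had 16. Myh10 had regions of both kinds.

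**Figure D1:**
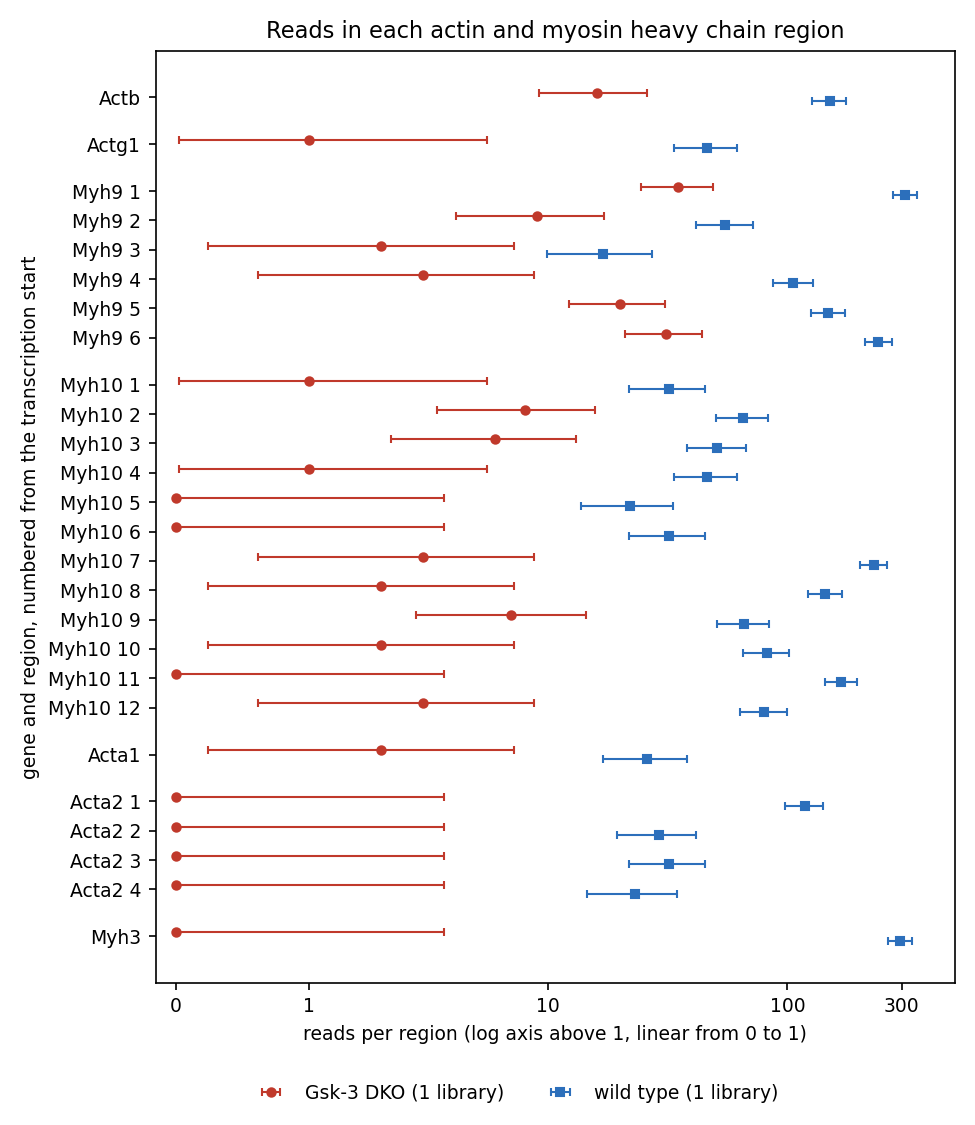
Reads in each region in the DKO (circles) and wild type (squares), with exact 95% Poisson intervals, on an axis that is logarithmic above 1. Acta2 and Myh3 stand at 0 DKO reads, while Myh9 reaches 35 and Actb 16.

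The β-actin gene Actb had 16 DKO reads (95% interval 9.15 to 25.98) against 150 in wild type (127 to 176). They lay in a 151-base region on chromosome 5 (142905467 to 142905617), annotated as coding exon and intron, 1182 bases from the transcription start. The fold was 7.73 lower in the DKO (4.61 to 13.9). At 0.993 wild-type reads per base, this region was denser than all but 314 of the 6697.

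The γ-actin gene Actg1 had 1 DKO read against 46 wild-type reads in a coding exon on chromosome 11 (120347003 to 120347173). Its fold was 37.9, with an interval of 6.48 to 1531 that overlaps that of Actb, so the counts do not separate these genes. The same region is also listed under the neighbouring genes 0610009L18Rik and Gm19976. The coding sequences of the actin genes are very similar, and Actb and Actg1 have processed copies elsewhere in the genome. How reads that fit several copies were placed, and whether counting used strand, is not given in the sources used here, so the split of reads among actin genes is uncertain.

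The smooth muscle actin gene Acta2 had 0 DKO reads in each of its 4 regions on chromosome 19, against 118, 29, 32 and 23 wild-type reads in order from the transcription start. The region nearest the start (34252391 to 34252545, at 2868 bases) carried 118 of the 202 wild-type reads of the gene and had 0.761 reads per base. The other 3 had 0.134 to 0.150 reads per base, below the median of 0.219 over all regions. For the deepest region the DKO count was at least 32.4-fold lower, and for the 4 summed it was at least 55.5-fold lower, with the floor of 3 counts set over the sum. All 4 regions carry the annotation Genic with no transcript, so the table does not say whether they are exonic or intronic. Of the 356 distinct regions with that annotation, 166 (46.6%) had no DKO reads.

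Acta1, the skeletal muscle actin gene, had 2 DKO reads against 26 in wild type in a region over coding exon and intron on chromosome 8 (123893321 to 123893480). Its fold of 10.7 (2.68 to 93.2) overlaps the intervals of Actb and Actg1. The region is also listed as upstream of LOC101056072. The cardiac actin gene Actc1 and the enteric smooth muscle actin gene Actg2 were not listed.

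Myh9, the heavy chain of non-muscle myosin IIA, had 6 regions on chromosome 15, and each of them had DKO reads. From the transcription start to the end of the gene the DKO counts were 35, 9, 2, 3, 20 and 31. The matching wild-type counts were 310, 55, 17, 106, 148 and 240. The first region (77841869 to 77842076), over 5'UTR and intron, and the last (77762957 to 77763121), in a coding exon 79076 bases from the start, were the deepest.

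Those ends of Myh9 had similar densities, 0.168 and 0.188 DKO reads per base against 1.49 and 1.45 in wild type. Their folds were 7.31 (5.14 to 10.7) and 6.39 (4.38 to 9.61), so the start and the end of the gene differed by less than counting error. The folds of the other 5 regions lay between 5.04 and 7.31. The fourth region (77769678 to 77769860) is described because it had the largest fold. It had 3 DKO reads where the ratio of the other 5 regions would give 13.4. Its fold was 29.1 (9.70 to 144), with an interval above the 6.55 of the others summed. That interval overlapped those of the other single regions except the last. Summed, Myh9 had 100 DKO reads against 876, a fold of 7.23 (5.87 to 8.98), and leaving out any 1 region gave 6.55 to 7.60.

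Myh10, the heavy chain of non-muscle myosin IIB, had 12 regions on chromosome 11, and only 6 of the 3884 listed genes had more. One lay over the 5'UTR and an intron, 201 bases from the transcription start (68692024 to 68692208), with 1 DKO read against 32. Its fold of 26.4 (4.41 to 1075) overlapped that of the first Myh9 region. No further region was listed over the next 99850 bases. The other 11, all overlapping coding exons, lay between 100051 and 123136 bases, and the last of them reached into the 3'UTR.

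Along those 11 regions of Myh10 the DKO counts were 8, 6, 1, 0, 0, 3, 2, 7, 2, 0 and 3. The wild-type counts were 65, 51, 46, 22, 32, 229, 144, 66, 82, 168 and 80. The regions with the most wild-type reads were therefore not those with the most DKO reads. The deepest (68802846 to 68803082) had 3 DKO reads against 229, a fold of 63.0 (21.3 to 308). With the 2 regions before it, which had 0 against 22 and 0 against 32, it lay inside 1023 bases.

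The region at 68814389 to 68814576 had 0 DKO reads against 168, at least 46.2-fold lower, where the ratio of the other 11 regions would give 6.53 reads. Among exonic regions of the table with 120 to 239 wild-type reads, 48 of 409 had no DKO reads. At the other end, 3 regions of Myh10 had 8, 7 and 6 DKO reads against 65, 66 and 51, with folds of 6.70, 7.78 and 7.01. Each of these intervals lay below the fold of the rest of the gene (29.5 to 31.4), and they stand at 100051, 101263 and 115280 bases, among regions with larger folds.

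Those 3 regions were picked for their DKO counts, and they held 21 of the 33 DKO reads of the gene and 182 of its 1017 wild-type reads. Of the 36 pairs among the 9 regions with DKO reads, 3 had intervals that did not overlap. In Myh9 this held for 1 of 15 pairs. Such pairs were not counted in other genes, so these counts do not show whether Myh10 or Myh9 is unusual. Whole Myh10 had 33 DKO reads against 1017, a fold of 25.4 (18.0 to 37.1).

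The intervals of the summed folds of Myh10 and Myh9 did not overlap, though they leave out the spread between regions of a gene, and the summed fold of Myh10 stayed at 21.2 to 31.4 on leaving out any 1 region. The genes had similar wild-type sums (1017 and 876 reads) over 2407 and 1045 bases of listed regions, and their DKO sums were 33 and 100. Without the regions near the transcription start the folds were 25.4 (17.9 to 37.3) for Myh10 and 7.18 (5.55 to 9.43) for Myh9. The heavy chains resemble each other in sequence, and how reads shared between them were placed is not given in the sources used here.

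**Figure D2:**
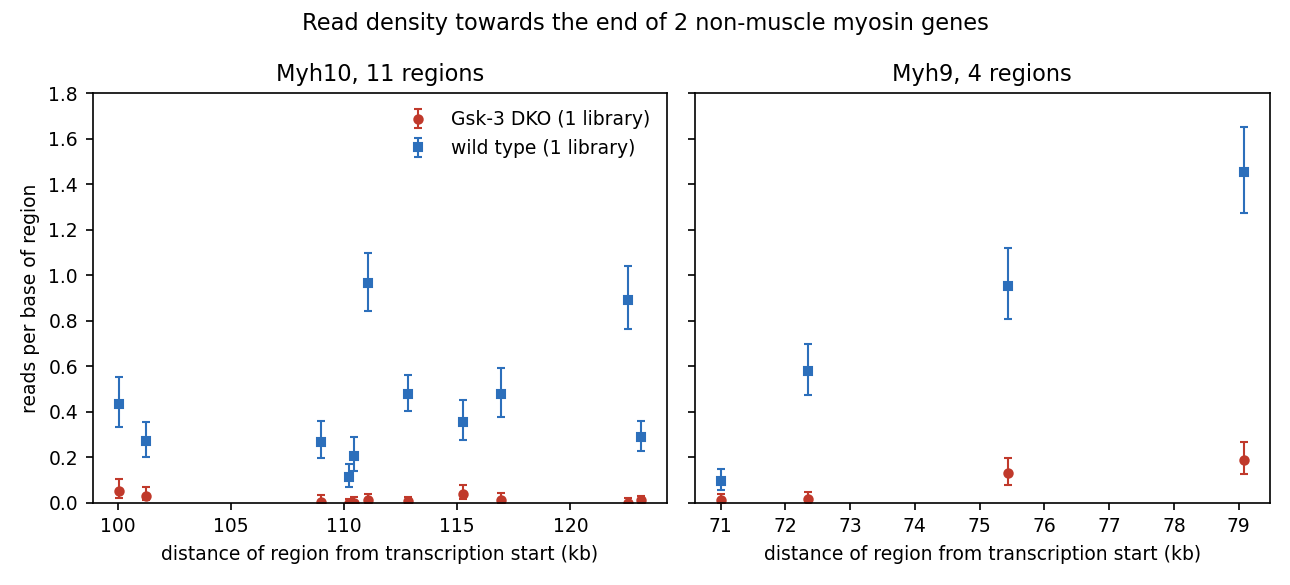
Reads per base of region in the DKO (circles) and wild type (squares), with exact 95% Poisson intervals, against distance from the transcription start for the regions of Myh10 past 100051 bases and of Myh9 past 71009 bases. In wild type the 4 Myh9 regions run from 0.0939 reads per base to 1.45 at the farthest, and the Myh10 regions peak at 0.966 and 0.894; the regions nearer the start are left out.

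Myh3, the embryonic skeletal muscle heavy chain, had 1 region, on chromosome 11 (67093512 to 67093691) over coding exon and intron, 15301 bases from the transcription start. It held 0 DKO reads against 296 wild-type reads (263 to 332), at least 81.4-fold lower (66.2 with 3.69 as floor). At 1.64 wild-type reads per base, this was the densest of the member regions, and 124 of the 6697 regions were denser. Among exonic regions with 240 to 479 wild-type reads, 10 of 129 had no DKO reads. By log2 of DKO over wild type, with a pseudocount of 0.5, its value of -8.93 was undercut by 18 regions, an order that at 0 DKO reads follows the wild-type count alone.

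The rest of Myh3 was not listed, whereas Myh10 had 12 regions and Myh9 had 6. Of the 13 numbered Myh genes in RefSeq, 3 (23.1%) were listed, near the 15.8% of all protein-coding genes. Those not listed were Myh1, Myh2, Myh4, Myh8 and Myh13 of skeletal muscle, Myh6 and Myh7 of the heart, Myh11 of smooth muscle, and Myh14 and Myh15. A gene that is not listed may have had few reads or failed the authors' selection, whose rule is not given in the sources used here.

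**Figure D3:**
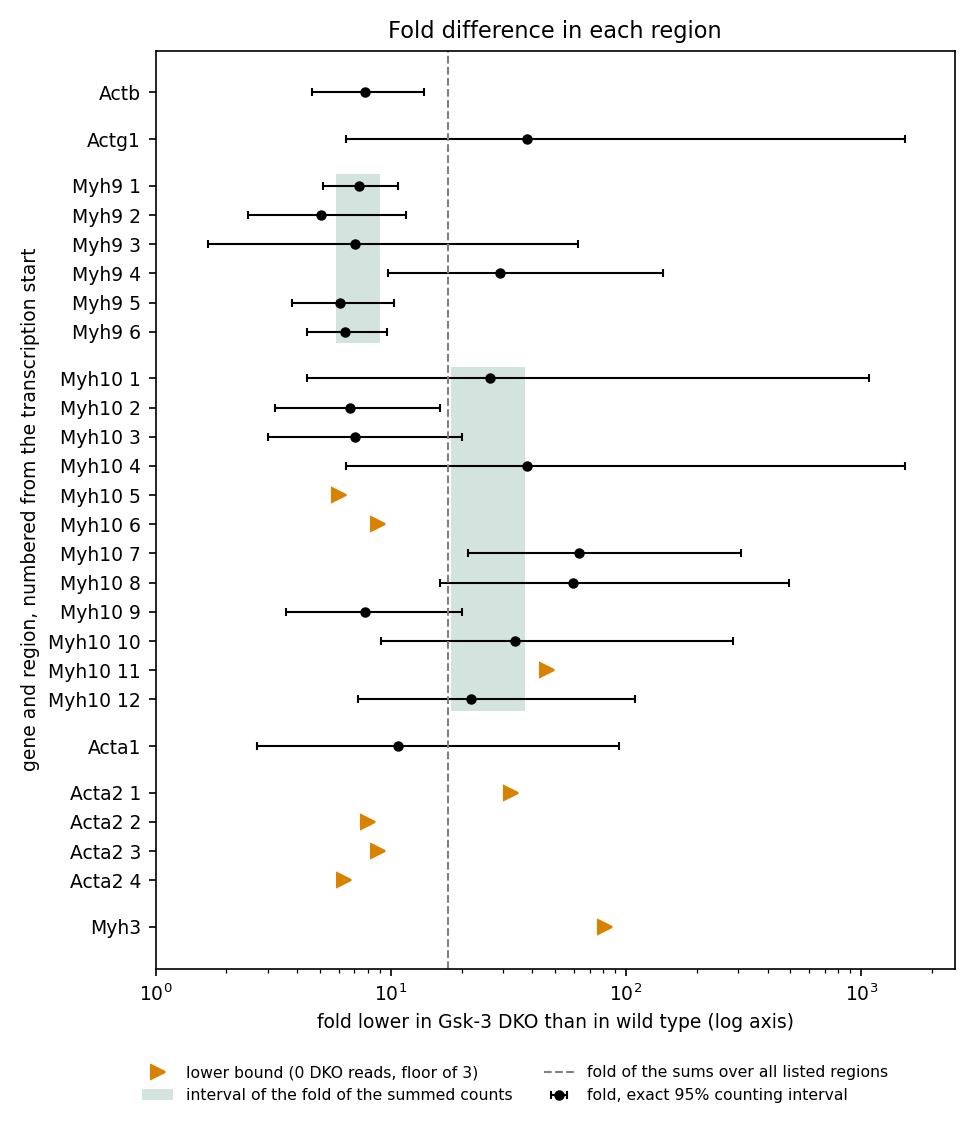
Fold by which each region was lower in the DKO than in wild type, on a log axis, with exact 95% intervals (circles) or lower bounds where the DKO had 0 reads (triangles). Shaded bands are the intervals of the summed folds of Myh9 (5.87 to 8.98) and Myh10 (18.0 to 37.1), and the dashed line is the fold of the sums over all listed regions (17.5).

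Taken by class, the muscle genes Acta1, Acta2 and Myh3 summed to 2 DKO reads against 524 over 6 regions, and the non-muscle genes Actb, Actg1, Myh9 and Myh10 to 150 against 2089 over 20. Over 1082 bases of muscle regions this was 0.00185 DKO reads per base against 0.484, and over 3774 bases of non-muscle regions 0.0397 against 0.554. The ratios of these sums were 216 for muscle (59.5 to 1789) and 11.5 for non-muscle genes (9.73 to 13.6). The intervals cover counting error only, while genes and regions within a class differed by more than that, so they do not show a difference between the classes. Both DKO reads of the muscle class were from Acta1, and the class without Acta1 had 0 DKO reads against 498, at least 137-fold lower. DKO reads were absent in 5 of 6 muscle and 3 of 20 non-muscle regions, beside the 50.5% of all distinct regions. The muscle regions had a median of 30.5 wild-type reads (highest 296), against 73.0 (highest 310) in the non-muscle regions. DKO reads were absent in 58.6% of exonic regions with 15 to 29 wild-type reads and 41.3% with 30 to 59. The share was 23.5% with 60 to 119, 11.7% with 120 to 239 and 7.75% with 240 to 479. The 4 Acta2 regions are Genic and not annotated as exonic, and whether depth plays a part in the contrast was not tested. In these bulk samples fewer cells of a type and less RNA per cell cannot be told apart.

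The class sums rest on few genes. Myh3 gave 296 of the 524 wild-type reads of the muscle class, and without it the fold was 94.03. Without Myh10 the non-muscle fold was 7.56, and without Myh9 it was 20.0, so the non-muscle value is a mixture of genes that differ. The 3 shallower Acta2 regions had lower bounds of only 6.32 to 8.80, and the Acta1 region had a fold of 10.7, while single non-muscle regions with DKO reads had folds from 5.04 to 63.0.

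Muscle markers in the table are given beside this contrast, with the deepest region of each gene. They include Acta1, Acta2 and Myh3, the muscle class itself, so the sums partly repeat its values. Myh3 alone gave 296 of the 352 wild-type reads of the skeletal markers, and Acta2 118 of the 379 of the smooth muscle markers. Des is counted in both of these sets. Among all listed genes measured this way 46.2% had no DKO reads, and 15.8% of protein-coding genes were listed. Of 8 smooth muscle markers 5 were listed, with 2 DKO reads against 379 summed. Acta2, Lmod1 (0 against 141), Smtn (0 against 63) and Tagln (0 against 27) had no DKO reads there. Des had 2 against 30, and Cnn1, Myh11 and Myocd were not listed. Of 9 skeletal markers 3 were listed (Acta1, Des and Myh3, 4 against 352), and the muscle regulators Myod1, Myog, Myf5 and Myf6 were not. Of 10 cardiac markers 3 were listed, Mef2c with 16 against 278 in an intron, Tbx20 with 0 against 99 and Nkx2-5 with 0 against 21. Of 6 fibroblast markers 2 were listed, Col1a1 with 0 against 108 and Fn1 with 4 against 65. The 4 listed stem cell markers summed to 14 against 266, with 7 against 146 for Esrrb, 6 against 55 for Pou5f1, 1 against 46 for Utf1 and 0 against 19 for Lin28a. Of these regions only that of Pou5f1 was in a coding exon. That of Esrrb was in an intron, and those of Utf1 and Lin28a were upstream. Whether the make-up of the cultures plays a part in the actin and myosin values was not tested.

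The regions were chosen by gene symbol and not by their place in the transcript. Regions without an annotated gene could therefore not be members, though the shares over all distinct regions include them. Coding exons were overlapped by 19 of the 25 regions (76.0%), against 43.5% of all distinct regions, and 16 of the 19 belonged to Myh10 and Myh9. Introns alone held 0 of the 25, against 15.6% of all, and 0 of the 25 were upstream regions, against 10.8%. The remaining regions were the 2 over the 5'UTR of Myh9 and Myh10 (8%, against 6.03% of all) and the 4 Genic ones of Acta2 (16%, against 5.32%). The 3'UTR was overlapped by 1 of the 25 (4%), at the end of Myh10, against 14.0% of all.

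The wider actomyosin list held partners of these proteins, with 1 region, the deepest, used for each gene. Of 141 genes 41 (not counting the members) were listed, and 25 of these were at least 10-fold lower in the DKO with zeros at their bound, against 55.6% of all genes so measured. DKO reads were absent in 15 of the 41, against 46.2% of all genes. The median log2 of DKO over wild type was -4.68, against -4.85 over all listed genes, an order that turned with a pseudocount of 2 and in exonic regions.

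Of 12 myosin light chain genes 0 were listed, and of all protein-coding genes 15.8% were. Of 17 genes that regulate myosin 5 were listed, 3 of them without DKO reads, and the median log2 value was -5.65. That value belongs to a gene with 0 against 30, at least 8.25-fold lower, and depends on the pseudocount. As folds, counting each 0 as 3 reads, the group median was 9.62, below the 11.1 of all listed genes. The log2 medians of the groups below also place zeros by the pseudocount, so they do not rank a group against all genes. The actin and myosin binding supervillin gene Svil had 21 against 181 in an intron (7.11-fold, 4.51 to 11.8). The kinase gene Cdc42bpb, which acts on myosin phosphorylation, had 2 against 69 (28.5-fold), and the myosin phosphatase subunit gene Ppp1r12c had 0 against 37, at least 10.2-fold lower.

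Of 19 tropomyosin, troponin and related thin filament genes 8 were listed, 3 without DKO reads, with a median of -5.23. Tropomyosins lie along the actin filament and govern access of myosin. Tpm4 had 39 against 248 (5.24-fold, 3.73 to 7.55), Tpm1 had 5 against 115 (19.0-fold, 7.90 to 59.5) and Tpm2 had 3 against 155 (42.6-fold, 14.3 to 209). In these deepest regions the intervals of Tpm1 and Tpm2 lay above that of Tpm4, and overlapped each other. Over all their listed regions Tpm4 had 49 against 332, Tpm1 13 against 193 and Tpm2 6 against 387. No intervals were computed for these sums, so they do not show whether the genes differ as a whole.

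Caldesmon, Cald1, which inhibits the actin-activated ATPase of myosin, had 13 against 169 (10.7-fold). The calponin genes Cnn2 and Cnn3 had 0 against 94 in the 3'UTR and 1 against 69 in the 5'UTR. The transgelin genes Tagln2 and Tagln had 0 against 144 in an upstream region and 0 against 27 in the 3'UTR. The troponin genes were not listed.

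Of 15 crosslinker genes 7 were listed, 1 of them, Pls3, without DKO reads, and the median was -4.15. The α-actinin gene Actn1 had 28 against 615 (18.1-fold, 12.4 to 27.5). The filamin gene Flnc of striated muscle had 4 against 304 (62.7-fold, 24.2 to 232), and its interval overlapped that of Actn1. This holds for the deepest region of each. Over all listed regions Flnc had 11 against 1888 in 14 regions and Actn1 52 against 1145 in 6. No intervals were computed for these sums. Of 38 actin assembly genes 8 were listed, 3 without DKO reads in their deepest region, with a median of -4.00. Among those 3, Fmnl2 had 1 DKO read against 70 over its 2 regions. The deepest were the capping protein gene Capza1 (1 against 64, in an upstream region), Enah (8 against 53), which promotes filament elongation, and the profilin gene Pfn1 (8 against 50).

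Of 25 unconventional myosin genes 8 were listed, 2 without DKO reads, with a median of -3.82. Myo6, a motor that moves towards the pointed end of actin, had 0 against 168 in an intron, the same pair of counts as 1 region of Myh10. Myo18a had 9 against 160, also in an intron, and Myo10, the motor of filopodia, had 8 against 102 in a coding exon. Of 6 genes of the pathway of serum response factor, which activates actin genes, 4 were listed, with a median of -5.98. Of these, 2 had no DKO reads in their deepest region, but both had DKO reads in other regions. Srf itself had 4 against 44 (9.07-fold, 3.30 to 34.8), and its coactivator gene Mkl1 had 2 against 184 (75.9-fold, 20.7 to 631). The vinculin gene Vcl had 0 against 80 in its deepest region and 6 against 223 over its 4 regions. Of 9 further sarcomere genes only the titin gene Ttn was listed, with 0 against 15.

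**Figure D4:**
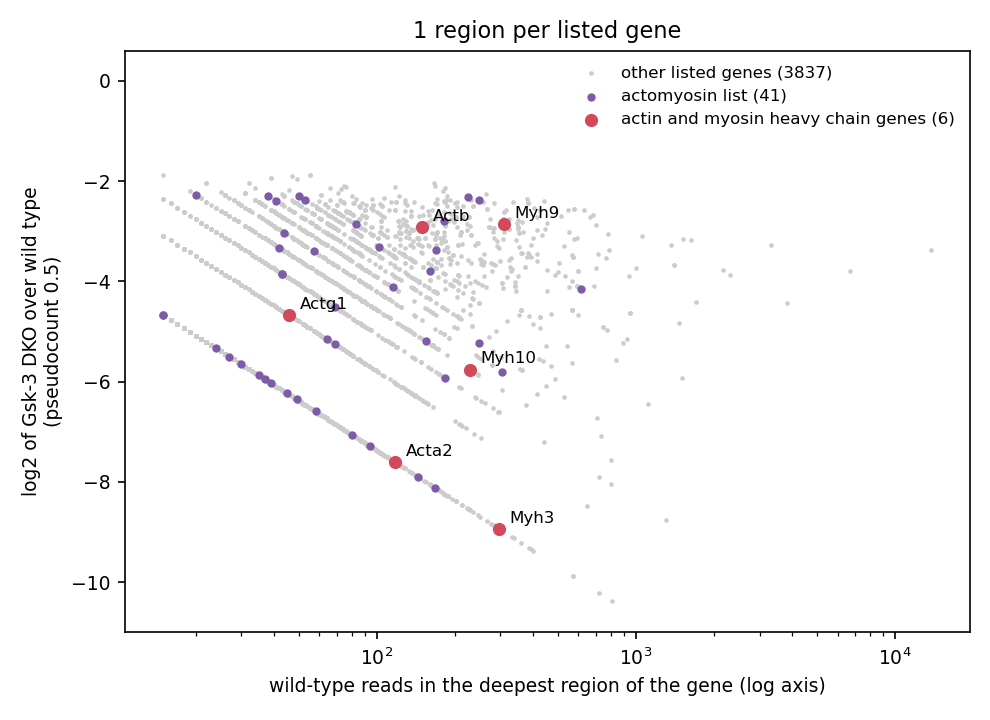
Each listed gene by the wild-type count of its deepest region (log axis) and the log2 of DKO over wild type with a pseudocount of 0.5. Diagonal rows are genes with the same low DKO count, and the lowest row has 0; Acta2 and Myh3 lie on it at -7.61 and -8.93, Actb and Myh9 lie near the top at -2.91 and -2.85, and the 41 genes of the actomyosin list run from -8.12 to -2.27.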

How the data were processed

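The data were 1 table of m6A regions with gene annotation, made by the authors. The submitters' processing notes name Bowtie2, DESeq and mm9, but the sources used here state neither their roles and versions nor the peak caller. The deposited counts are whole numbers per region, and the file headers state no normalization. The deposited enrichment factor is a ratio of wild-type to DKO counts, multiplied by 0.825 and left blank at 0 DKO reads. The deposited read density is a signal, wild-type reads divided by region length. Coordinates are as deposited. All 25 member regions lay within their gene in RefSeq GRCm38.p6, so they match that build.

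The 7562 rows were reduced to 6697 distinct regions. Counts have exact Poisson intervals, and folds exact Clopper-Pearson intervals from the share of reads, computed with SciPy 1.17.1 under Python 3.11.15 and checked on simulated data. No molecular identifiers are mentioned, so reads may be PCR copies, and intervals and floors describe counting error alone. The total depth of the libraries is unknown. With 1 library per group no p-value was computed. Members, lists and alternatives were chosen with earlier results of these data known. The rule for named genes took every member region and, in each group of the actomyosin list, the 3 genes with the highest mean count (all in the light chain and thin filament groups). A gene that the rule takes is not reported here. The pathway list counts symbols found in RefSeq. Alternatives were other pseudocounts, no constant, another floor, exonic regions and leaving out genes.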

Additional observations from a re-analysis of the deposited data

How the results depend on the processing

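No paired analysis was possible because each group had 1 library. The non-muscle fold (11.5) was 13.9 without the authors' constant, which enters it directly, 7.56 without Myh10 and 20.0 without Myh9. The muscle fold (216) was 94.03 to 137 on leaving out 1 gene, where the value without Acta1 is a bound (111 with the upper Poisson limit of a count of 0, 3.69, as floor), and 133 in exonic regions. The median log2 of the member regions (-4.68) was -4.91 and -3.68 with pseudocounts of 0.25 and 2 and -5.22 with 1 region per gene. That of the actomyosin list (-4.68, all genes -4.85) was -3.60 (all genes -3.45) with a pseudocount of 2 and -4.52 (all genes -4.32) in exonic regions, so which of the list and all genes was lower depends on these settings. Of 83 alternatives for single regions, 77 stayed within counting error. The other 6 were 3 without the constant and 3 with the other floor, both of which enter the value directly. Among the 77 are the 8 regions with 0 DKO reads at a pseudocount of 0.25. These could not leave their interval, which has no lower end, so the 77 include outcomes fixed in advance. No setting tried could turn a direction, since the smallest fold of a region with DKO reads was 2.91, and at 0 DKO reads the interval has no lower end. The settings with 1 region per member gene, without the region with the most DKO reads (non-muscle fold 12.8) and without the Genic regions (muscle fold 133) were chosen after seeing the data. DKO counts of 0 to 3 in 17 of the 25 regions limit what the folds can separate.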
